A study of Mus musculus with 6 samples.

Results

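The period genes Per1, Per2 and Per3, the cryptochrome genes Cry1 and Cry2, the clock repressor gene Ciart, the casein kinase genes Csnk1d and Csnk1e and the ubiquitin ligase gene Fbxl21 were followed in mouse brown adipose tissue. These 9 genes were taken by symbol from a table of 45777 genes, and all 9 were among the 16707 genes with enough counts to be tested. They were chosen by family and symbol, with the fold changes of ginsenoside Rb2 against PBS in these same counts already known, so the fold changes and p-values below describe each gene's place in a fit over all genes and support no claim about the set. Male wild-type mice of the C57Bl6/J strain received intraperitoneal injections of Rb2, a steroid-like saponin of ginseng, or of phosphate-buffered saline (PBS) for 2 weeks, and RNA of 3 mice per group was sequenced after poly(A) selection. The libraries are named by their column numbers, Rb2 1, 3 and 4 and PBS 1, 2 and 4. No source used here gives the age of the mice, the dose or the hour at which tissue was taken.

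PER and CRY proteins form the repressor complex of the circadian clock. They enter the nucleus together and block the activator pair CLOCK and BMAL1 on E-boxes, short DNA elements in the promoters of the Per and Cry genes and of many output genes, so that the repressors shut off their own transcription once a day. Casein kinase 1 delta and epsilon phosphorylate PER and so set how long it lasts, FBXL21 marks CRY for turnover or protection, and CIART (also called CHRONO) binds BMAL1 and represses it. In brown fat, as in other tissues, the transcripts of most of these genes rise and fall over the day, with peaks at different hours, and the part of the hour of collection in the values below was not tested.

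Total counts ran from 87545902 to 89924631 in the Rb2 libraries and from 83642183 to 92666780 in the PBS libraries. A floor of 3 counts, an approximate upper limit for the expected count behind an observed 0, stood for 0.0307 to 0.0370 CPM. CPM are counts brought to the same library size, here by TMM, the trimmed mean of M values. Brown adipocyte markers were present in every library, with Ucp1 at 3674 ± 910 CPM with Rb2 and 3983 ± 711 CPM with PBS (SD, n = 3 each), and none of the 8 passed in edgeR (2 had an unadjusted p under 0.05, and the DESeq2 Wald test called 1, lower). The 15 skeletal muscle markers took 0.00476% to 0.0481% of the counts with Rb2 and 0.00716% to 0.815% with PBS, with PBS 2 and PBS 1 (0.247%) the highest, 9 of the 15 had a count of 0 in at least 1 library, and none passed in edgeR (0 at an unadjusted p under 0.05; DESeq2 called 1). Endothelial markers took 0.0682% to 0.111% with Rb2 and 0.129% to 0.157% with PBS (4 of 8 lower), erythroid markers 0.0452% to 0.0819% with Rb2 and 0.1005% to 0.155% with PBS (4 of 6 lower), and macrophage markers 0.00555% to 0.00868% with Rb2 and 0.00896% to 0.0105% with PBS (2 of 7 lower). For fibroblast and progenitor markers the ranges were 0.0264% to 0.0405% with Rb2 and 0.0423% to 0.0564% with PBS (none of 6 called in edgeR, 4 with an unadjusted p under 0.05; DESeq2 called 4, lower). Of all 16707 tested genes 5.11% were called lower in edgeR, 5020 had an unadjusted p under 0.05 in edgeR, and DESeq2 called 3295. The part of these vessel, blood, immune and stromal transcripts in the members' values was not tested. In bulk tissue fewer cells of a type and less RNA per cell cannot be told apart.

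After Rb2, Per2, Per3, Cry2 and Ciart transcripts were higher, Per1 and Csnk1e were lower, and Cry1, Csnk1d and Fbxl21 did not pass the threshold (quasi-likelihood test of edgeR, with p adjusted by Benjamini and Hochberg over all 16707 genes and a threshold of 0.05). Of all tested genes 10.4% were called, 5.33% higher and 5.11% lower, beside 4 higher and 2 lower among the 9 members. In the same 6 members no Rb2 library overlapped a PBS library, as in 35.8% of all tested genes (18.2% with all Rb2 libraries higher, 17.6% with all lower). The median log2 fold change was 0.03 over the 9 members and -0.01 over all tested genes. Within each family the genes thus differed in direction or in size: Per1 fell while Per2 and Per3 rose, Cry2 rose while Cry1 was at 1.02-fold, and Csnk1e fell while Csnk1d was at 0.981-fold.

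**Figure D1:**
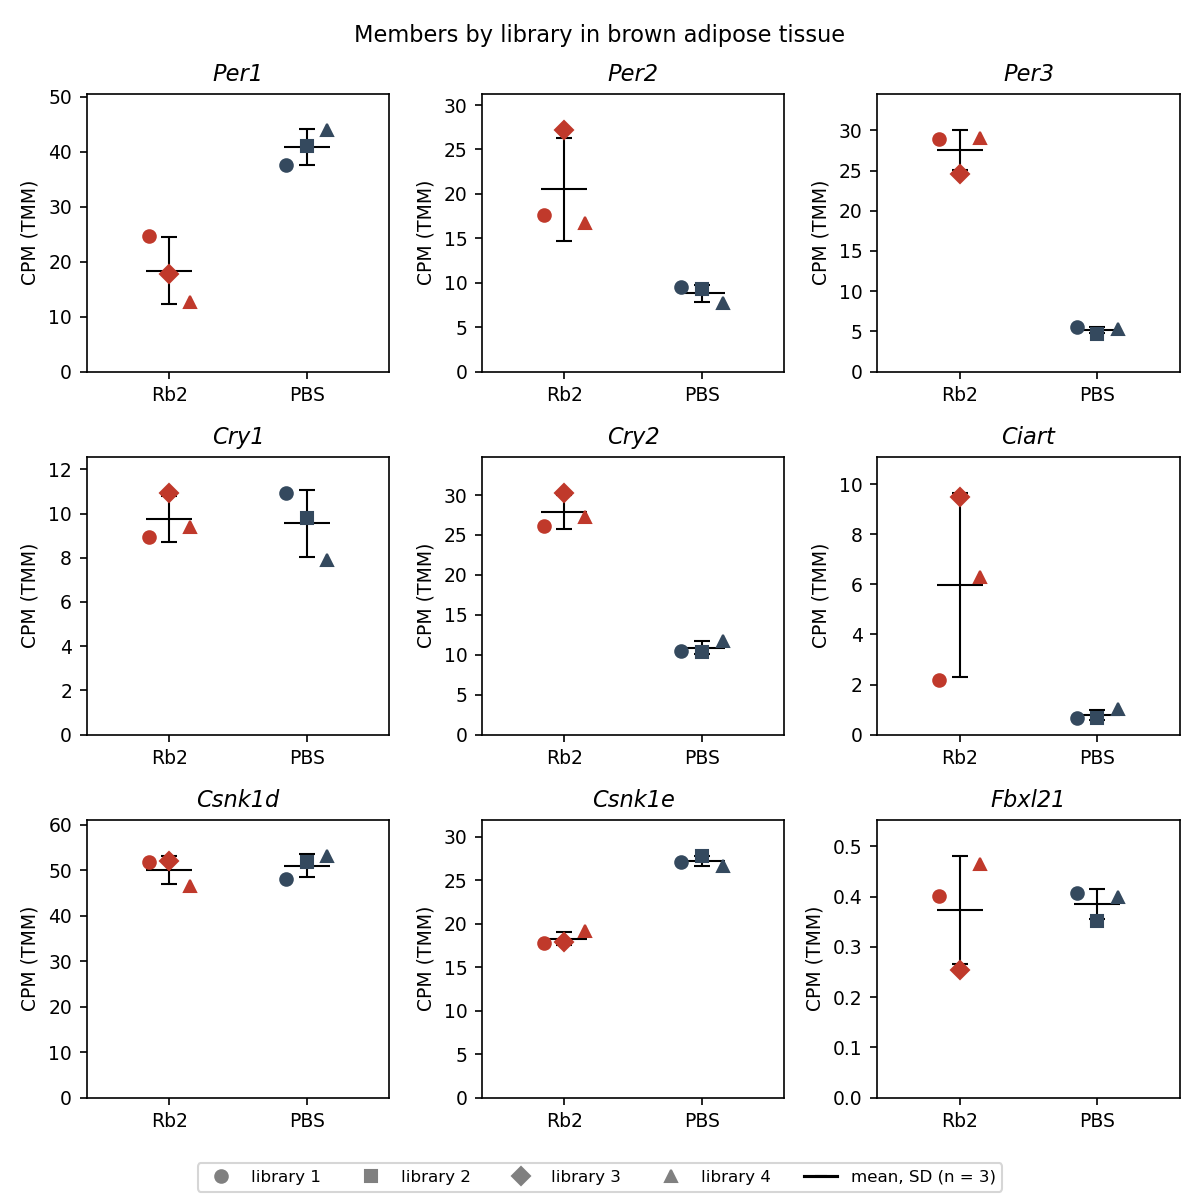
Expression of the 9 members in each library (y axis, TMM-normalised CPM, starting at 0), with Rb2 left of PBS, marker shapes for the library numbers, and a horizontal line with bars for mean and SD (n = 3). The groups are apart for Per1, Per2, Per3, Cry2, Ciart and Csnk1e and overlap for Cry1, Csnk1d and Fbxl21; Ciart has its lowest Rb2 value, 2.18 CPM, in Rb2 1.

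The promoters of members that moved differently are shown because the clock acts on them through short, known elements. Promoter windows from RefSeq (build GRCm38.p6, 250 bases before to 50 after an annotated start) matched 7 of the 9 members, with more than 1 start for Per1 and Csnk1e. Per2 and Csnk1d had no entry. The E-box CACGTG, the E-prime box CACGTT, the D-box bound by DBP, TEF, HLF and NFIL3 (spelled TTACATAA, TTACGTAA, TTATATAA or TTATGTAA), the core of the element bound by ROR and REV-ERB factors (TAGGTCA or TGGGTCA) and the cAMP response element TGACGTCA were searched on both strands. None of these spellings overlapped another in the matches found. The windows lie at chr11:69098699-69098998 (plus strand), chr4:151044616-151044915 (minus), chr10:85185005-85185304 (minus), chr2:92434020-92434319 (minus) and chr3:95882179-95882478 (minus), and are written 5′ to 3′ along the gene with matches in capitals; AACGTG is the E-prime box read on the other strand.
Per1: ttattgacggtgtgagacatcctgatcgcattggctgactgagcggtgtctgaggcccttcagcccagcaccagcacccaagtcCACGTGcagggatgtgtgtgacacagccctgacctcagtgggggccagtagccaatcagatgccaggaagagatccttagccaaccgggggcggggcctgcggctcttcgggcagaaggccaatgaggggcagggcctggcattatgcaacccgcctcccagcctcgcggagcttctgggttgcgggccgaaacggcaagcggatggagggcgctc
Per3: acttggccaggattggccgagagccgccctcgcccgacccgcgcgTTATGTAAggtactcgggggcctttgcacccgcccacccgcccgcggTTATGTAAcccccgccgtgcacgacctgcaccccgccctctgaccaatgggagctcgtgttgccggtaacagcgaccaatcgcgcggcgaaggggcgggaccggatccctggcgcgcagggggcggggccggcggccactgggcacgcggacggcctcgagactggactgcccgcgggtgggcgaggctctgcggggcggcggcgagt
Cry1: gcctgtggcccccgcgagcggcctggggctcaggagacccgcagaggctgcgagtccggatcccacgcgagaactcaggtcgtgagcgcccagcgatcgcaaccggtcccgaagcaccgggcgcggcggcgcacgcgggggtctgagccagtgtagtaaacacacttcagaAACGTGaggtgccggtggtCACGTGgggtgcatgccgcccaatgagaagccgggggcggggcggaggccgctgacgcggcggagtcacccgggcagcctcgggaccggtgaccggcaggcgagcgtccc
Cry2: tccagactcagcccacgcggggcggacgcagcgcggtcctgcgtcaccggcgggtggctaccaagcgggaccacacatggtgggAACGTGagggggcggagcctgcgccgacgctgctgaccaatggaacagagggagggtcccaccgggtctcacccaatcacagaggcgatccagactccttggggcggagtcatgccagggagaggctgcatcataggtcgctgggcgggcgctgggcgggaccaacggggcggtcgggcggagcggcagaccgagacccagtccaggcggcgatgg
Ciart: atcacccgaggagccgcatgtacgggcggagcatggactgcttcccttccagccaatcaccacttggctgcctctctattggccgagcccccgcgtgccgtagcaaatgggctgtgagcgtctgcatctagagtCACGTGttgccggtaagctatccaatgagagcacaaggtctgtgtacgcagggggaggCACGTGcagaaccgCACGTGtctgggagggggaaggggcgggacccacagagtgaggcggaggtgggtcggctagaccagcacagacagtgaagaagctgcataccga

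In these windows Ciart held 3 E-boxes, with their first bases at positions -116, -58 and -44 from the start. Cry1 held an E-box at -60 and an E-prime box at -79, Per1 an E-box at -166 of its first annotated start, and Cry2 an E-prime box at -166. Per3 held no E-box but 2 D-boxes, at -205 and -158, both spelled TTATGTAA. Over all 32851 promoter windows of the same length, 7.15% held the E-box, 4.68% the E-prime box and 1.59% a D-box. The second Per1 start, the 4 Csnk1e starts and the Fbxl21 window held none of the elements in the spellings searched. No member window held the exact cAMP response element TGACGTCA (1.79% of all windows) or the ROR element core (6.45%). Shorter or altered spellings were not searched, and the window of the second Per1 start holds TGACGTC. A match describes these letters in this window and does not show that a factor binds there.

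**Figure D2:**
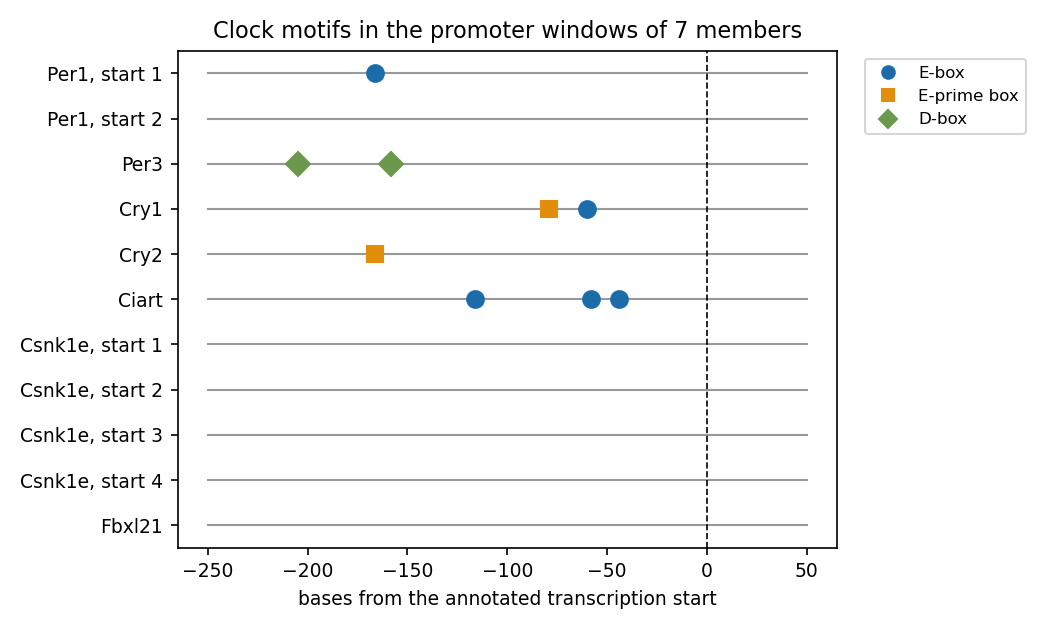
Position of motif matches in the promoter windows of 7 members (x axis, bases from the annotated start; 1 line per start; circles E-box, squares E-prime box, diamonds D-box). Ciart has 3 E-boxes and Per3 has 2 D-boxes, at -205 and -158, while the lines of Csnk1e, Fbxl21 and the second Per1 start are empty.

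Among the period genes, Per3 had the clearest separation. Per3 (gene 18628; chromosome 4, 150997018 to 151044707 in GRCm38.p6) encodes the period protein whose loss in mice affects the rhythm least. It stood at 28.9, 24.6 and 29.1 CPM in Rb2 1, 3 and 4, against 5.56, 4.74 and 5.26 CPM in PBS 1, 2 and 4. Every Rb2 library was above every PBS library, and the spread within each group was small (coefficient of variation 9.17% with Rb2 and 8.06% with PBS). The log2 fold change was 2.41 ± 0.14 SE (5.31-fold, adjusted p = 0.000211), which ranked 1 by p among all tested genes. Per3 lies beside Camta1 and shares 41014 bases of its span with that gene on the same strand, but 0 exonic bases. Camta1 had 603, 654 and 750 counts with Rb2 and 595, 806 and 757 with PBS.

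Per2 (gene 18627; chromosome 1, 91415977 to 91459351) encodes the period protein that mice need most for a stable rhythm. It had 17.6, 27.2 and 16.8 CPM in Rb2 1, 3 and 4, against 9.48, 9.29 and 7.75 CPM in PBS 1, 2 and 4. All Rb2 libraries were above all PBS libraries, and Rb2 3 stood apart from the other two (coefficient of variation 28.2% with Rb2, 10.8% with PBS). The log2 fold change was 1.22 ± 0.20 SE (2.32-fold, adjusted p = 0.0101). Without PBS 1 the call was lost by a small margin (1.27, adjusted p = 0.0510).

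Per1 (gene 18626; chromosome 11, 69095108 to 69109965), a period gene whose transcription responds quickly to cAMP and glucocorticoids, moved the other way. It had 24.7, 17.8 and 12.6 CPM in Rb2 1, 3 and 4, against 37.6, 41.0 and 44.0 CPM in PBS 1, 2 and 4. The groups did not overlap, and the Rb2 libraries spread widely (coefficient of variation 33.0% with Rb2, 7.85% with PBS). The log2 fold change was -1.15 ± 0.22 SE (0.450-fold, adjusted p = 0.0188). Per1 had the highest GC content of the members, 59.4% in its longest transcript, and once GC content and length were offset it did not pass (-0.90, adjusted p = 0.0506). The call was also lost without PBS 1 (adjusted p = 0.0676), without PBS 2 (0.0632) and without Rb2 3 (0.0698), with log2 fold changes of -1.21, -1.15 and -1.13.

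Taken per kilobase of annotated exon, the 3 period transcripts summed to similar levels while their proportions differed. The sum was 10.4, 10.4 and 8.13 CPM per kb in Rb2 1, 3 and 4, and 8.87, 9.36 and 9.69 CPM per kb in PBS 1, 2 and 4, so the groups overlapped. Per1 made up 42.2%, 30.5% and 27.6% of that sum with Rb2 and 75.2%, 77.8% and 80.7% with PBS. Per2 took 36.3% ± 7.997 with Rb2 and 16.3% ± 2.37 with PBS, and Per3 30.3% ± 6.38 with Rb2 and 5.82% ± 0.64 with PBS (SD, n = 3 each). Per1 was thus the main period transcript of each PBS library, whereas none of the 3 held a majority in any Rb2 library. With the length of the longest transcript in place of all exons, an alternative chosen after seeing the data, Per1 took 32.2% with Rb2 and 78.5% with PBS, and Per3 38.6% with Rb2 and 7.79% with PBS. The count ratio of Per3 to Per1 within a library, which no scaling changes, was 1.17, 1.38 and 2.31 with Rb2 and 0.148, 0.116 and 0.120 with PBS.

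**Figure D3:**
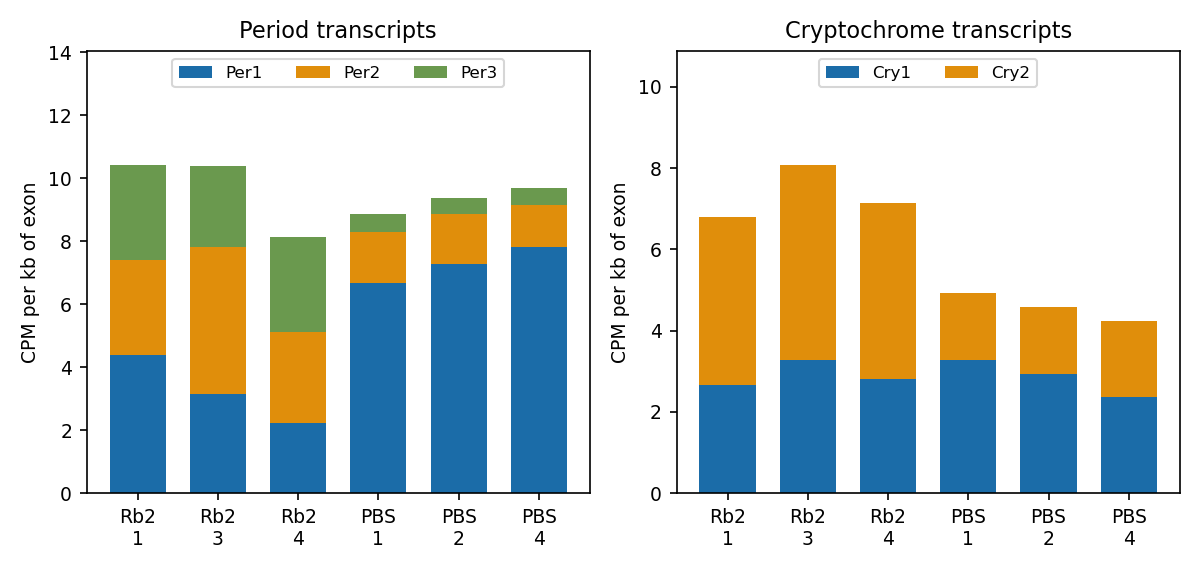
Summed period (left) and cryptochrome (right) transcripts per library, in CPM per kb of annotated exon, with each gene's part stacked. The period sums overlap between Rb2 and PBS while the Per1 part is smaller in every Rb2 library; the cryptochrome sums are higher in every Rb2 library through the Cry2 part.

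Both cryptochromes repress CLOCK and BMAL1, with opposite effects of their loss on the length of the daily rhythm in mice. Cry2 (gene 12953; chromosome 2, 92403646 to 92434085) had 26.1, 30.3 and 27.3 CPM in Rb2 1, 3 and 4, against 10.5, 10.3 and 11.8 CPM in PBS 1, 2 and 4. The groups were far apart and each was tight (coefficient of variation 7.80% with Rb2 and 7.32% with PBS), with a log2 fold change of 1.36 ± 0.13 SE (2.56-fold, adjusted p = 0.00214). The noncoding gene D930015M05Rik overlaps Cry2 on the other strand by 295 exonic bases and had at most 5 counts in any library.

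Cry1 (gene 12952; chromosome 10, 85131700 to 85185054) had 8.92, 10.9 and 9.40 CPM in Rb2 1, 3 and 4, and 10.9, 9.81 and 7.91 CPM in PBS 1, 2 and 4. These values overlapped, and the log2 fold change was 0.03 ± 0.16 SE (adjusted p = 0.920); its sign turned with library size alone (-0.050). The count ratio of Cry2 to Cry1 within a library was 2.92, 2.77 and 2.90 with Rb2, against 0.958, 1.05 and 1.49 with PBS. Per kilobase, both cryptochromes together reached 6.80, 8.06 and 7.13 CPM per kb with Rb2 and 4.93, 4.57 and 4.23 CPM per kb with PBS. Cry2 made up 60.2% ± 0.69 of that sum with Rb2 and 37.8% ± 5.51 with PBS (SD, n = 3 each). By the longest transcript these shares were 68.5% with Rb2 and 46.6% with PBS, and in PBS 4 Cry2 was then at 53.1%.

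Ciart (gene 229599; chromosome 3, 95878500 to 95882257) had the largest fold change of the members and the widest spread. It had 2.18, 9.50 and 6.28 CPM in Rb2 1, 3 and 4, against 0.678, 0.672 and 1.012 CPM in PBS 1, 2 and 4. The Rb2 libraries were all above the PBS ones, but Rb2 1 was closer to the PBS libraries than to the other Rb2 libraries. Its log2 fold change was 2.92 ± 0.54 SE (7.58-fold, adjusted p = 0.0237), and the coefficient of variation was 61.2% with Rb2 and 24.7% with PBS. The call was lost without PBS 1 (2.83, adjusted p = 0.0998), without PBS 2 (2.82, adjusted p = 0.113) and in limma-voom (2.70, adjusted p = 0.0522). The antisense gene C920021L13Rik spans nearly the same interval with 0 shared exonic bases. It had 55, 65 and 80 counts with Rb2 and 60, 80 and 93 with PBS. Its part in the Ciart counts was not tested.

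The casein kinases differed from each other as well. Csnk1e (gene 27373; chromosome 15, 79417852 to 79455579) had 17.8, 17.9 and 19.1 CPM in Rb2 1, 3 and 4, against 27.1, 27.8 and 26.7 CPM in PBS 1, 2 and 4. The change was the smallest of the 6 called members and rested on the tightest groups (coefficient of variation 4.07% with Rb2 and 2.14% with PBS), with a log2 fold change of -0.57 ± 0.11 SE (0.672-fold, adjusted p = 0.0174). It was not past the threshold without PBS 1 (adjusted p = 0.0654), PBS 2 (0.0820) or Rb2 3 (0.0672), where the log2 fold changes were -0.58, -0.56 and -0.56. With the offset for GC content and length it was -0.42 (adjusted p = 0.0394). The antisense gene Gm16059 overlaps Csnk1e by 267 exonic bases on the other strand and has no row under that name in the counts analysed here, so its part in the Csnk1e counts was not tested.

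Csnk1d (gene 104318; chromosome 11, 120957709 to 120991350), which encodes the closely related kinase, had 51.8, 51.9 and 46.4 CPM with Rb2 and 48.1, 51.8 and 53.0 CPM with PBS. Its groups overlapped, with a log2 fold change of -0.03 ± 0.12 SE (adjusted p = 0.896) that turned to 0.061 with the offset. It shares 63 exonic bases with the antisense gene Gm28192, which likewise has no row under its name. The count ratio of Csnk1d to Csnk1e was 2.91, 2.90 and 2.43 with Rb2, against 1.78, 1.86 and 1.99 with PBS. Their annotated transcripts shared no stretch of 50 bases letter for letter, nor did those of the cryptochromes or of the period genes. A read of that length or longer can thus match at most 1 gene of each pair letter for letter. Matches with mismatches were not tested. How the counting treated strand and reads with several matches no source used here states. Fbxl21 (gene 213311; chromosome 13, 56522388 to 56537898) had low counts, 34, 21 and 43 with Rb2 and 33, 34 and 39 with PBS, though above the floor of 3 (log2 fold change -0.04 ± 0.37 SE, adjusted p = 0.951).

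**Figure D4:**
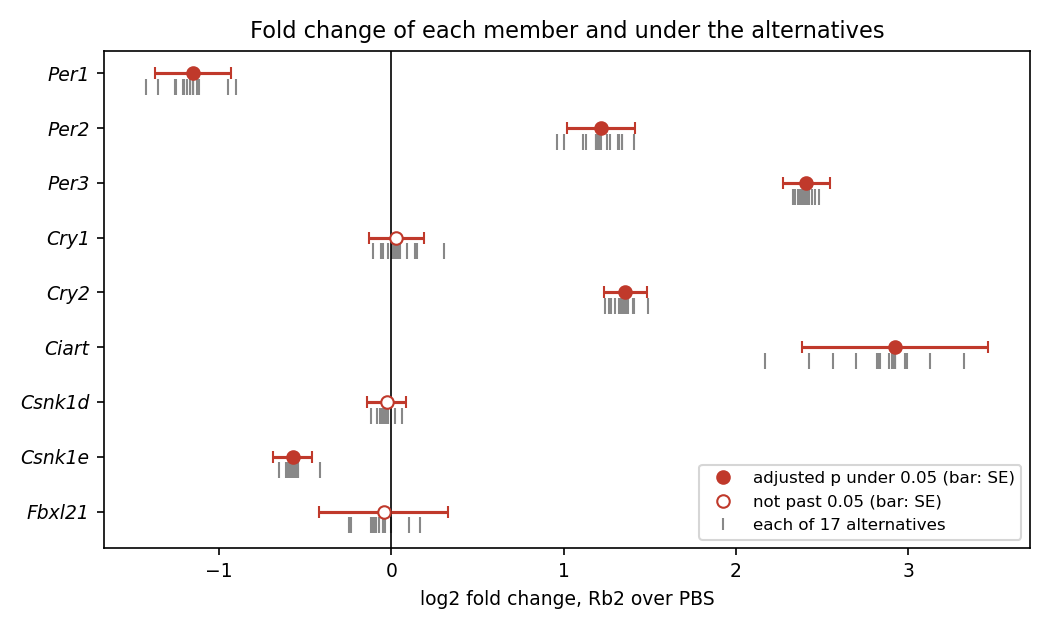
Log2 fold change of Rb2 over PBS for each member (x axis; circles with SE bars, filled where the adjusted p was under 0.05), with a grey tick for each of 17 alternative settings. Fbxl21 has no tick for the count minimum of 50, a filter that it did not pass. Ticks of the 6 called members stay on 1 side of 0 in all 17, while those of Cry1, Csnk1d and Fbxl21 lie on both sides.

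Ordered by level per kilobase of annotated exon, Csnk1d was highest in both groups, at 9.96 ± 0.62 CPM per kb with Rb2 and 10.2 ± 0.51 with PBS, and Fbxl21 lowest, at 0.0779 ± 0.0225 with Rb2 and 0.0804 ± 0.0062 with PBS (SD, n = 3 each). With Rb2 the next were Cry2 (4.41), Per2 (3.51), Per1 (3.27), Cry1 (2.92), Per3 (2.87), Csnk1e (2.77) and Ciart (2.65 CPM per kb). In this stretch each gene differed from its neighbour by less than their summed SDs. With PBS the next were Per1 (7.26), Csnk1e (4.13), Cry1 (2.86), Cry2 (1.72), Per2 (1.51), Per3 (0.540) and Ciart (0.348 CPM per kb). There the neighbours Cry2 and Per2 differed by less than their summed SDs, and every other pair of neighbours by more. The order depends on the length used: by the longest transcript Csnk1e stood at 5.76 CPM per kb with Rb2, above Per3 (4.59) and Per1 (3.94).

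Members did not share 1 order of libraries within a group. Relative to the mean of the Rb2 libraries on the log2 scale, Rb2 1 was lowest for Ciart (-1.21) and highest for Per1 (0.48), whereas Per2 and Ciart were highest in Rb2 3 (0.44 and 0.91). Deviations of Per3 from its group mean lay between -0.16 and 0.10 in all 6 libraries, and those of Csnk1e between -0.04 and 0.07. PBS 4, the PBS library with the least muscle transcript, lay with PBS 1 and PBS 2 in all 6 called members. With PBS 1 and PBS 2 both left out, the log2 fold changes were -1.26 for Per1, 1.41 for Per2, 2.39 for Per3, 1.24 for Cry2, 2.56 for Ciart and -0.54 for Csnk1e, and no gene of the whole table passed edgeR's adjusted threshold (2063 had an unadjusted p under 0.05). With the muscle markers as a covariate all 6 members kept their call. Beyond these fits, the part of muscle tissue in the members' values was not tested.

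The transcription factors that drive or read the loop formed a list of 15 genes. Of these, 7 were higher, 3 lower and 5 did not pass, beside 5.33% higher and 5.11% lower among all tested genes. The median log2 fold change of the 15 was 1.09, against -0.01 over all tested genes. Tef, a D-box activator, had 129, 152 and 155 CPM with Rb2, against 39.5, 40.5 and 41.7 CPM with PBS (log2 fold change 1.84 ± 0.13 SE, adjusted p = 0.000864). Hlf, another D-box activator (2.23), and Nr1d2, which encodes the repressor REV-ERB beta (1.66), rose as well, and the D-box repressor Nfil3 fell (-1.86), with adjusted p of 0.00278, 0.00287 and 0.00252. Dbp, Bhlhe41, Nr1d1 and Arntl2 were the other higher genes, and Npas2 and Arntl (BMAL1) the other lower ones; these 6 fall outside the naming rule and are given after their values were seen. Dbp had 54.4, 118 and 114 CPM in Rb2 1, 3 and 4, against 8.44, 5.21 and 6.41 CPM with PBS, and was, like Ciart and Bhlhe41 (10.2, 25.1 and 16.5 CPM with Rb2, against 2.66, 2.63 and 2.99 CPM with PBS), lowest among the Rb2 libraries in Rb2 1. Tef, Nr1d1 and Nr1d2 were also lowest among the Rb2 libraries in Rb2 1, whereas Hlf and Arntl2 were lowest in Rb2 3. Clock, the partner of BMAL1, was at 0.06 (adjusted p = 0.828).

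**Figure D5:**
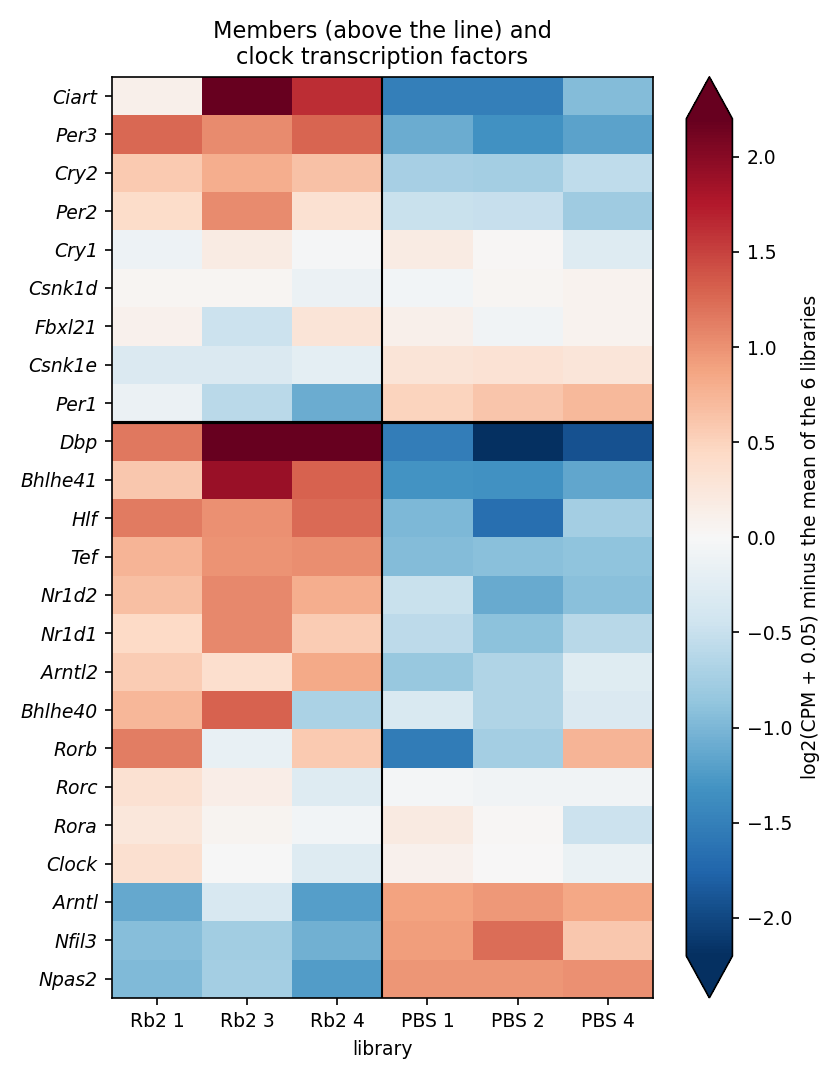
Log2(CPM + 0.05) of the 9 members (above the line) and 15 clock transcription factors (below it) in each library, minus the gene's mean over the 6 libraries; red is higher, blue lower, and colours saturate at the ends of the bar. Ciart, Per3, Cry2 and Per2 share the direction of Dbp, Hlf and Tef, and Per1 and Csnk1e that of Arntl, Nfil3 and Npas2. The strength of colour differs: the log2 fold change was -0.57 for Csnk1e and -2.03 for Npas2.

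Outside the members, no transcript in the lists of proteins that modify, degrade or accompany PER and CRY passed the threshold in edgeR. Of 24 genes for PER and CRY turnover and other clock kinases, 0 were called, with Ppp1cb, a catalytic subunit of protein phosphatase 1, at a log2 fold change of 0.55 (adjusted p = 0.0579). Of 24 partners and corepressors of the PER complex 0 were called, with Cipc, an inhibitor of CLOCK, at 0.40 (adjusted p = 0.0549) and Hdac2, a histone deacetylase, at 0.38 (adjusted p = 0.0711). At an unadjusted p under 0.05 these were 6 and 10 genes, and the DESeq2 Wald test called 5 and 3 of them, all higher, while limma-voom called none. Of all 16707 tested genes edgeR called 10.4%, and 5020 had an unadjusted p under 0.05 in edgeR. DESeq2 called 3295 of them and limma-voom 1200.

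In the lists of CREB factors and immediate early genes, glucocorticoid genes and temperature-linked genes, each edgeR call was lower with Rb2. Among all tested genes 5.11% were lower. The part of these lists in the members' values was not tested. Of 17 CREB factors and immediate early genes 1 was lower: Fosb, an AP-1 subunit, with 0.142, 0.0606 and 0.108 CPM with Rb2, against 1.11, 0.879 and 1.28 CPM with PBS (-3.38 ± 0.40 SE, adjusted p = 0.0038). Crtc1, a CREB coactivator, was at -0.54 (adjusted p = 0.101). Of 8 genes for the glucocorticoid receptor and its induced targets 3 were lower: Tsc22d3 (GILZ; -0.68, adjusted p = 0.0122), Cdkn1a, a cell cycle inhibitor (-2.09, adjusted p = 0.0256), and Sgk1, a kinase (-1.86, adjusted p = 0.0292); the receptor gene Nr3c1 was at 0.44 (adjusted p = 0.0531). Of 8 temperature-linked genes 1 was lower, the cold-inducible RNA-binding protein gene Cirbp (-0.65, adjusted p = 0.0489), and the heat shock gene Hspa1b was at -3.31 (adjusted p = 0.0955). The median log2 fold change was -0.07 over the CREB and immediate early genes, -0.74 over the glucocorticoid list and -0.41 over the temperature-linked genes, against -0.01 over all tested genes. At an unadjusted p under 0.05 edgeR had 2 of the 17, 4 of the 8 glucocorticoid and 4 of the 8 temperature-linked genes. Over all 16707 tested genes, 5020 had an unadjusted p under 0.05 in edgeR, DESeq2 called 3295 and limma-voom called 1200. The DESeq2 Wald test called 1 higher and 1 lower among the CREB and immediate early genes, 1 higher and 3 lower in the glucocorticoid list, and 4 lower among the temperature-linked genes, while limma-voom called 1, 3 and 1, all lower.

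By Pearson correlation of log2 CPM over the 6 libraries, among 12898 other genes whose higher group averaged 1 CPM or more, the genes most like Per3 were Pot1a (r = 0.998), Zfp874b, Paxbp1 and Zswim5 (0.994). Their log2 fold changes ran from 0.51 to 1.53, against 2.41 for Per3, since r does not measure the size of a change. Most like Per1 were Tmem184b (0.991), Ptpn1, Reck, Tgm2 and Pfkfb4 (0.984), none of which passed the threshold (adjusted p from 0.0610 to 0.0895). Most like Cry1 were Atp6ap1 (0.971), Arrdc3, Dnaja2, Uhrf2 and March3 (0.962). With 6 libraries in 2 groups, any pair of genes that differ between the groups can reach a high r, and these values are a description only.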

How the data were processed

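Brown adipose tissue RNA of 3 Rb2-treated and 3 PBS-treated mice was measured by stranded, poly(A)-selected RNA sequencing, per the labels' protocols. The authors deposited whole-number read counts per gene, not normalized, in 1 table; Trimmomatic, HISAT2, Bowtie2 and StringTie with mm10 are named in the submitters' processing notes, with no roles or versions, and no source used here describes the counting step. Columns could be tied to groups but not to sample titles, and whether equal numbers in both groups mark pairs is not known.

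All genes were tested with edgeR 4.0.16 (R 4.3.3; quasi-likelihood F test, TMM factors, robust dispersions, default filter with a count minimum of 10 and a total of at least 15), with Benjamini-Hochberg adjustment over all 16707 genes tested and a threshold of 0.05. The SE was taken as the size of the log2 fold change over the root of its F value. Levels are TMM-normalised CPM, and per-kilobase levels use annotated GENCODE exons (vM21, the GRCm38 build that mm10 stands for). Floors cover counting error only. Members, gene lists and alternatives were chosen with earlier results of these data known. All members are named; from each pathway list the text names the 4 genes with the smallest p, or 2 where fewer than 3 passed; a few genes that these rules name are not reported here. Alternatives used DESeq2 1.42.0, limma 3.58.1, other factors and filters, left-out libraries, a block, a muscle covariate and a GC and length offset (natural splines with 5 degrees of freedom, 94.4% of genes covered).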

Additional observations from a re-analysis of the deposited data

How the results depend on the processing

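Per1, Per2, Per3, Cry2, Ciart and Csnk1e kept their direction in all 17 alternatives, and passed the threshold in 11, 14, 16, 15, 12 and 12 of them. All 6 passed with RLE, upper-quartile or no scaling factors, in DESeq2, with either other filter and with the muscle covariate. With library size alone the median of all genes was at -0.10 and 38.7% of calls were higher, against 51.1%. Genes past the threshold numbered 1743, and 3295 in DESeq2, 897 with the muscle covariate and 3392 at an adjusted p under 0.1. When 1 library was left out they ran from 303 to 2269, members called from 2 to 6, higher members from 2 to 4 and lower members from 0 to 2; such fits have fewer samples. With both PBS libraries richest in muscle transcripts left out, 0 genes and 0 members passed in edgeR (0 higher, 0 lower; 2063 genes at an unadjusted p under 0.05), in a fit that assumes that the remaining PBS library varies like the Rb2 ones. The GC and length offset left 1 lower member, Csnk1e; the cause was not tested. A replicate block on the column numbers 1 and 4, which both groups carry, left 96 genes and 1 member (1 higher, Per3, adjusted p = 0.0154; 0 lower). Deviations from the group mean had an r across genes of -0.21 for number 1 and -0.23 for number 4. Between libraries with unlike numbers r ran from -0.47 (Rb2 1 and PBS 2) to 0.51 (Rb2 1 and PBS 4). With 3 libraries per group these values cannot decide whether equal numbers mark pairs.

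Signs turned only among members that were not called. Cry1 was at -0.050 with library size alone, -0.022 with the replicate block and between -0.11 (without PBS 4) and 0.14 (without PBS 1) when 1 library was left out. Csnk1d was at 0.061 with the offset and between -0.067 (without PBS 1) and 0.020 (without Rb2 4). Fbxl21 was at 0.10 with the replicate block and between -0.24 (without Rb2 4) and 0.17 (without Rb2 3). Fbxl21, at 21 to 43 counts, is limited by depth, and with the count minimum of 50 it was not tested.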
